A study of Mus musculus with 16 samples.

Results

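The 9 genes described here make GABA, load it into synaptic vesicles or mark the classes of cortical interneurons: Gad1, Gad2, Slc32a1, Pvalb, Calb1, Calb2, Reln, Lhx6 and Nos1. The rule that picks them is a list of gene symbols and uses no measured value, although the list was drawn up with earlier results of these data known. Each has 1 of the 26625 entries of the deposited gene table. All 9 were among the 18826 genes with enough reads to be tested.

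GABA is the main inhibitory transmitter of the cortex and is made from glutamate by the glutamate decarboxylases GAD67, the product of Gad1, and GAD65, the product of Gad2. The transporter VGAT, encoded by Slc32a1, then fills vesicles with it. Cortical interneurons fall into classes that are told apart by the proteins they contain, among them the fast-spiking parvalbumin cells, the somatostatin cells that contact dendrites, the Vip cells that often contact other interneurons, and the neurogliaform cells of the upper layers.

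The study asked what the histone demethylase KDM7A does in the medial prefrontal cortex (mPFC) during withdrawal from morphine. Male C57BL/6 mice aged 8 to 10 weeks received into the mPFC an AAV that expresses a short hairpin RNA against Kdm7a from a U6 promoter and EGFP from a CMV promoter, or a control virus, so every mouse here was injected. Neither promoter limits expression to 1 cell type, and the tissue that was sequenced was not sorted for infected cells. Conditioning took 10 days, in which the drug groups had saline and morphine (10 mg/kg) on alternating days and the others saline. The mPFC was collected on day 17, the 7th day of withdrawal, right after a test of place preference. Of the mice that had saline, 3 carried the control virus (Ctrl + Saline) and 5 the hairpin (Kdm7a-shRNA + Saline), and of those that had morphine 4 carried each (Ctrl + Morphine and Kdm7a-shRNA + Morphine). Each mouse was sequenced as full-length cDNA on the Nanopore platform.

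Each mouse had from 6596991 to 12418112 counted reads. The levels below are normalized CPM, which is the count of a gene relative to the total count of its mouse, on the CPM scale, after scaling by edgeR's TMM factors. Kdm7a itself averaged 9.42 ± 0.353 normalized CPM in Ctrl + Saline (SD, n = 3), 7.72 ± 1.13 in Ctrl + Morphine (SD, n = 4), 5.55 ± 0.571 in Kdm7a-shRNA + Saline (SD, n = 5) and 4.94 ± 1.53 in Kdm7a-shRNA + Morphine (SD, n = 4). It passed the test under saline (adjusted p = 0.0153, edgeR's quasi-likelihood test) and just missed it under morphine (adjusted p = 0.0506). As for the tissue label, the cortical excitatory marker Slc17a7 had 2258 to 5184 reads per mouse and the thalamic and subcortical marker Slc17a6 had 2 to 28. Other subcortical markers had more, Prkcd 42 to 324, Tcf7l2 30 to 193, Zic1 14 to 62 and Zic4 7 to 36. Summed with Slc17a6 they had a median of 28.0 normalized CPM in Ctrl + Saline and 30.8 in Ctrl + Morphine. The medians were 50.5 in Kdm7a-shRNA + Saline and 39.3 in Kdm7a-shRNA + Morphine. The part of subcortical tissue in the results was not tested. Microglial markers stood higher with the Kdm7a-shRNA virus, and reads came from shorter transcripts in those mice; both are set out beside the results they accompany.

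Of the 9 genes, 4 passed the test of knockdown under saline, where 16.7% of all tested genes did. No further one of the 9 passed in another comparison. The promoter sequences of these 4 are shown because the enzyme under study acts on histone marks at promoters, and because they differ widely in CG dinucleotides. Each is the 250 bases before the RefSeq start on GRCm38.p6, written 5′ to 3′ on the gene's own strand, with every CG in capitals. They lie at chr15:78206401-78206650 for Pvalb (minus strand), chr2:158610508-158610757 for Slc32a1 (plus strand), chr2:22622077-22622326 for Gad2 (plus strand) and chr5:22344706-22344955 for Reln (minus strand).
Pvalb: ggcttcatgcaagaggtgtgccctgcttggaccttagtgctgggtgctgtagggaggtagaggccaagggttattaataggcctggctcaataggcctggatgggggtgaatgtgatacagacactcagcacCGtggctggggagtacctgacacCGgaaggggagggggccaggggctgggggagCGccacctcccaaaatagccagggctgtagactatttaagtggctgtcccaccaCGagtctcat
Slc32a1: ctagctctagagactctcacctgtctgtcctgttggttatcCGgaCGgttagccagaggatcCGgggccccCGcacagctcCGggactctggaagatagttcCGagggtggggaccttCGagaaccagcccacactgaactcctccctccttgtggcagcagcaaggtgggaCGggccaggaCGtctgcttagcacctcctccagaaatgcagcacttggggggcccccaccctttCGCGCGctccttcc
Gad2: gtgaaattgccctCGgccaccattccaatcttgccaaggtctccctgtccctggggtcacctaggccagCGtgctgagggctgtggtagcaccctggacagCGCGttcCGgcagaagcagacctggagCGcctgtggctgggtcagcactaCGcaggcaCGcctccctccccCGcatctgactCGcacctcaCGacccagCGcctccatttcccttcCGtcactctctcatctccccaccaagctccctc
Reln: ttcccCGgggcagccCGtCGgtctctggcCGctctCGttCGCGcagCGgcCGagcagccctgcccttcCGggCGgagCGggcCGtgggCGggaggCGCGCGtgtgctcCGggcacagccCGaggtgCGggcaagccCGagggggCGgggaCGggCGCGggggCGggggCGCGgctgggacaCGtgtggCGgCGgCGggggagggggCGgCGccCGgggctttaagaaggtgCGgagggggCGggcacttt

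Pvalb, which was higher with the Kdm7a-shRNA virus, had 4 CG dinucleotides in this window, and Slc32a1 had 12. Gad2 had 13 and Reln 37, against a median of 6 over 32851 mouse promoters, and 97.8% of those promoters had fewer than Reln. Pvalb has a further RefSeq start with 23 CG dinucleotides in its window, and the table held promoters for 7 of the 9 genes. The letters TATAAA were on either strand in none of the 4 windows (12.4% of all promoters hold them) and TGACGTCA in none (1.55% hold them). CCAAT was found in the Gad2 window alone (33.8% of all promoters) and GGGCGG, which contains a CG, in the Reln window alone (32.7%). Chromatin was not measured in these samples.

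The first comparison was Kdm7a-shRNA + Saline with Ctrl + Saline. Here 4 of the 9 genes passed, Slc32a1 and Pvalb as higher and Gad2 and Reln as lower. A gene passed when it changed by 1.5-fold or more with an adjusted p below 0.05 in edgeR's quasi-likelihood test with Benjamini-Hochberg adjustment over all 18826 genes. Over all tested genes 16.7% passed in this comparison, 7.43% as higher and 9.31% as lower. The same comparison under morphine gave 2 genes, Pvalb as higher and Reln as lower, against 7.69% of all genes (2.86% higher, 4.83% lower). Of the genes passing, 1398 of 3151 were higher under saline and 538 of 1448 under morphine. With library size alone in place of TMM factors, 967 of 3309 and 394 of 1640 were higher, and all genes had a median of -0.12 and -0.11 on the log2 scale. The 18826 genes include unannotated loci, while the 9 are known genes. In a fit of the 14435 known genes only, the lean was the other way. There 875 of 1419 passing genes were higher under saline and 268 of 446 under morphine. In bulk tissue fewer cells of a class and less RNA in each of those cells cannot be told apart.

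**Figure D1:**
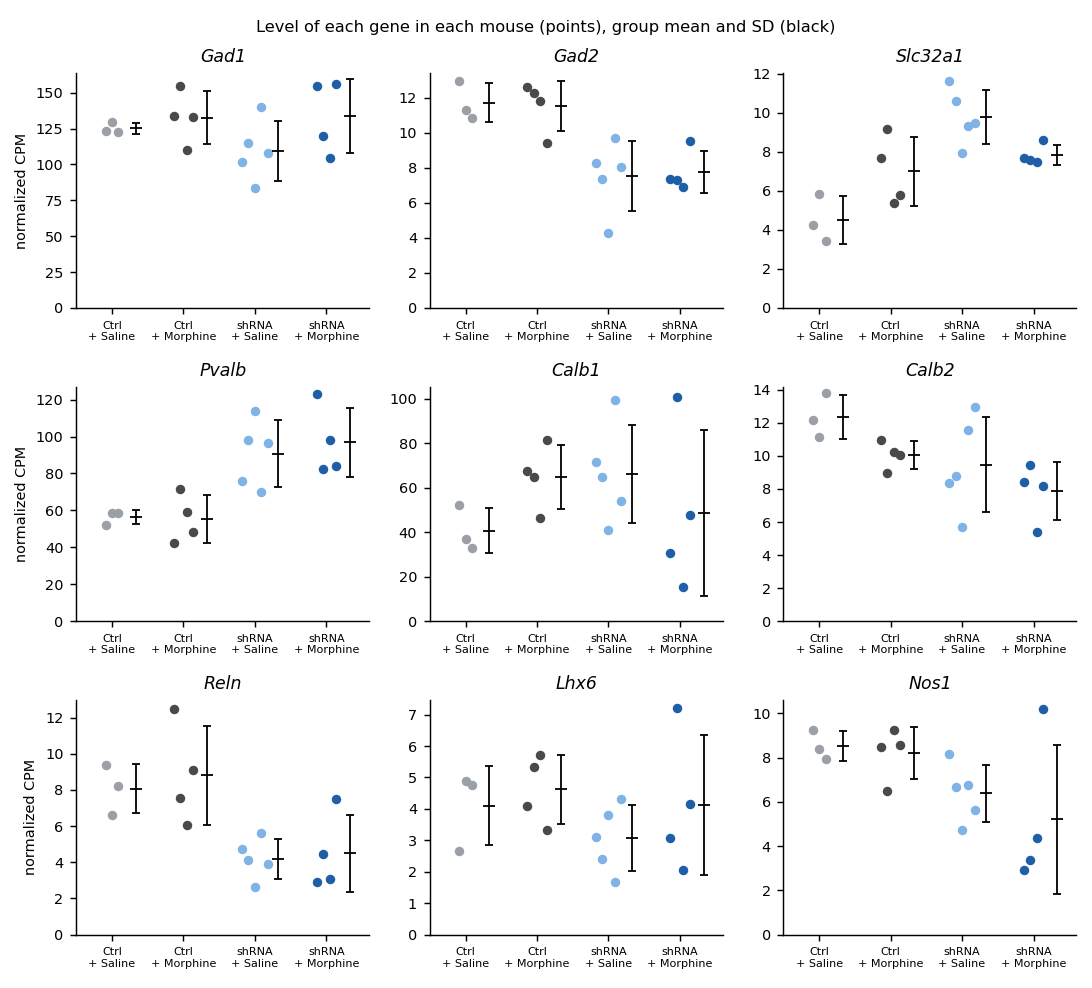
Level of the 9 genes in normalized CPM (y axes, each starting at 0) in every mouse of the 4 groups (points), with the group mean and SD in black; shRNA stands for Kdm7a-shRNA. Pvalb is higher in every Kdm7a-shRNA mouse than in every Ctrl mouse of the same treatment, and Calb1 spreads from 15.4 to 101 within the Kdm7a-shRNA + Morphine group.

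Gad1 lies at chr2:70553072-70602014 on the plus strand and gives the decarboxylase that makes most cortical GABA. Its level was 125 ± 4.11 normalized CPM in Ctrl + Saline (SD, n = 3), 133 ± 18.3 in Ctrl + Morphine (SD, n = 4), 109 ± 20.7 in Kdm7a-shRNA + Saline (SD, n = 5) and 134 ± 25.9 in Kdm7a-shRNA + Morphine (SD, n = 4). All 4 groups overlapped. The log2 fold change with knockdown was -0.19 under saline (95% interval -0.53 to 0.14) and 0.011 under morphine (-0.32 to 0.34), and neither passed (adjusted p = 0.417 and 0.978). Gad1 had the narrowest range of the 9 genes over the 16 mice, 1.88-fold from 83.3 to 156. A gene antisense to it, Gad1os, is annotated at the same place, and the strand used in counting is not given in the sources used here, so their reads cannot be told apart.

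Gad2 lies at chr2:22622205-22693874 on the plus strand and gives the decarboxylase found at nerve terminals. In normalized CPM it stood at 13.0, 11.3 and 10.9 in the Ctrl + Saline mice and at 8.27, 7.37, 4.27, 9.67 and 8.04 in the Kdm7a-shRNA + Saline mice. These groups did not overlap. Under morphine the Ctrl mice stood at 12.6, 12.3, 11.8 and 9.41 and the Kdm7a-shRNA mice at 7.35, 7.31, 6.87 and 9.53. There the highest Kdm7a-shRNA mouse lay just above the lowest Ctrl mouse. The log2 fold change was -0.63 (SE 0.204, adjusted p = 0.0360) under saline, a 1.55-fold lower level. Under morphine it was -0.57 (SE 0.201, adjusted p = 0.0798), which did not pass, and the difference between these log2 fold changes was 0.063 (95% interval -0.54 to 0.67, adjusted p = 0.964). The call under saline was near its limit. It was lost, with adjusted p from 0.0518 to 0.0913, without any 1 of 6 of the 8 mice: Ctrl + Saline replicates 1, 2 and 3 and Kdm7a-shRNA + Saline replicates 2, 3 and 5. Under morphine Gad2 passed without Kdm7a-shRNA + Morphine replicate 4 (-0.68, adjusted p = 0.0444).

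Slc32a1 lies at chr2:158610767-158615748 on the plus strand and encodes the vesicular GABA transporter. It moved the other way from Gad2. The Ctrl + Saline mice had 4.23, 5.86 and 3.44 normalized CPM and the Kdm7a-shRNA + Saline mice 11.6, 10.6, 7.94, 9.34 and 9.45, so the lowest of the latter was above the highest of the former. The log2 fold change was 1.10 (SE 0.216, adjusted p = 0.00271), a 2.14-fold higher level, and it passed without any 1 of the 8 mice (0.92 to 1.35, adjusted p at most 0.0279). In the Ctrl + Morphine mice Slc32a1 stood at 7.69, 9.18, 5.36 and 5.78, and in the Kdm7a-shRNA + Morphine mice at 7.66, 7.55, 7.47 and 8.59. The latter all lay within the span of the former, and the log2 fold change under morphine was 0.15 (95% interval -0.26 to 0.57, adjusted p = 0.672).

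The 2 knockdown effects on Slc32a1 differed by -0.95 on the log2 scale (SE 0.292, 95% interval -1.56 to -0.33). This had an unadjusted p of 0.00456 and an adjusted p of 0.214, so it did not pass in the edgeR test. None of the 9 genes passed this test of the interaction, in which 0.0850% of all genes passed, and 1 of the 9, Slc32a1, had an unadjusted p under 0.05 (10.7% of all genes did). DESeq2 also called none of the 9. Over all genes it called 219 for the interaction, against 16 by edgeR, and edgeR called 266 without Ctrl + Saline replicate 1 and 113 without Kdm7a-shRNA + Morphine replicate 2. The counts behind Slc32a1 were low, from 26 to 101 reads per mouse, and a gene antisense to it, Gm14205, shares its place, so that without the strand its reads cannot be told apart either.

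Since Gad2 and Slc32a1 are used by the same cells, their counts were also set against each other within each mouse, which needs no scaling between mice. This ratio was chosen after the values had been seen and has no test. There were 0.317 to 0.748 Slc32a1 reads for each Gad2 read in the 7 Ctrl mice and 0.901 to 1.86 in the 9 Kdm7a-shRNA mice, with no overlap. Within the Ctrl virus the ratio was 0.317 to 0.517 under saline and 0.454 to 0.748 under morphine. Gad1 reads per Gad2 read ran from 9.30 to 14.1 in the Ctrl mice and from 12.3 to 21.1 in the Kdm7a-shRNA mice, and these ranges overlapped. The ratios compare mice only, since the transcripts differ in length, and that comparison has a limit as well. Transcript length moved with the virus, as set out below, and Gad2 (5744 bases) is longer than Slc32a1 (2797) and Gad1 (3355). The part of length in the ratios was not tested. Slc32a1 and Gad2 had also been called in opposite directions under saline in these mice, and overlap was not counted for other gene pairs.

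**Figure D2:**
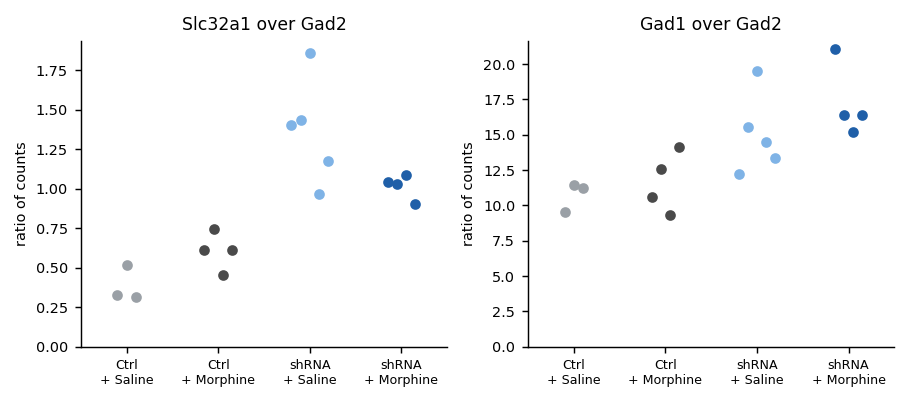
Reads on Slc32a1 per read on Gad2 (left) and reads on Gad1 per read on Gad2 (right), on y axes from 0, in each mouse of the 4 groups (points); shRNA stands for Kdm7a-shRNA. On the left the 7 Ctrl mice lie between 0.317 and 0.748, all below the 9 Kdm7a-shRNA mice at 0.901 to 1.86, while on the right the ranges overlap.

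Among the calcium-binding proteins, Pvalb gave the most even result. It lies at chr15:78191114-78206400 on the minus strand and encodes parvalbumin, which buffers calcium in fast-spiking basket and chandelier cells. The Ctrl + Saline mice had 52.3, 58.7 and 58.4 normalized CPM and the Kdm7a-shRNA + Saline mice 75.7, 98.4, 114, 69.7 and 96.3. Under morphine the Ctrl mice had 42.1, 71.5, 59.4 and 48.1 and the Kdm7a-shRNA mice 123, 82.4, 98.0 and 84.1. In both comparisons every Kdm7a-shRNA mouse was above every Ctrl mouse of the same treatment. Groups that do not overlap were seen in 23.7% of all genes under saline, where 4 of the 9 genes showed it, and in 13.9% under morphine, where Pvalb alone did. The log2 fold change was 0.68 (SE 0.189, adjusted p = 0.0174) under saline and 0.81 (SE 0.180, adjusted p = 0.0118) under morphine, and the difference between them was 0.12 (95% interval -0.42 to 0.66, adjusted p = 0.916). The call under saline was lost without Ctrl + Saline replicate 1 (0.59, adjusted p = 0.0677) or replicate 3 (0.68, adjusted p = 0.0647), and under morphine it was kept without any 1 of the 8 mice (adjusted p at most 0.0492).

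Calb1, at chr4:15881264-15908064 on the plus strand, encodes calbindin, which is found in part of the somatostatin cells and also in excitatory neurons of the upper layers. Its level averaged 40.7 ± 10.1 normalized CPM in Ctrl + Saline (SD, n = 3), 64.9 ± 14.4 in Ctrl + Morphine (SD, n = 4), 66.2 ± 22.0 in Kdm7a-shRNA + Saline (SD, n = 5) and 48.6 ± 37.4 in Kdm7a-shRNA + Morphine (SD, n = 4). The Kdm7a-shRNA + Morphine mice stood at 30.5, 101, 15.4 and 47.6, which holds both the lowest and the highest level of all 16 mice. Over all mice the range was 6.57-fold, the widest of the 9 genes, on 179 to 884 reads. With that spread the log2 fold changes of 0.70 under saline (95% interval -0.17 to 1.57, adjusted p = 0.243) and -0.42 under morphine (-1.24 to 0.40, adjusted p = 0.543) did not pass. The difference between them, -1.12 (-2.32 to 0.075), had an adjusted p of 0.503.

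Calb2, at chr8:110137502-110168210 on the minus strand, encodes calretinin, a protein of Vip and bipolar interneurons. It averaged 12.4 ± 1.34 normalized CPM in Ctrl + Saline (SD, n = 3), 10.1 ± 0.833 in Ctrl + Morphine (SD, n = 4), 9.48 ± 2.86 in Kdm7a-shRNA + Saline (SD, n = 5) and 7.87 ± 1.73 in Kdm7a-shRNA + Morphine (SD, n = 4). The log2 fold changes with knockdown were -0.38 (95% interval -0.84 to 0.092) and -0.36 (-0.83 to 0.10). Neither passed (adjusted p = 0.245 and 0.328). Of the calcium-binding genes, then, Pvalb alone passed.

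**Figure D3:**
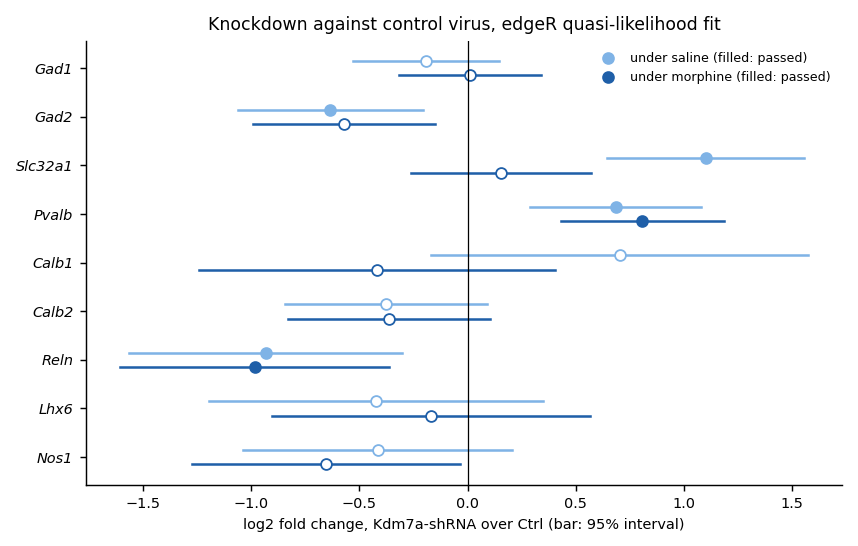
Log2 fold change of the Kdm7a-shRNA over the Ctrl group (x axis) for the 9 genes, under saline (light blue) and under morphine (dark blue), with 95% intervals as bars and filled points for genes that passed. Pvalb is filled on the right (0.68 and 0.81) and Reln on the left (-0.93 and -0.98) in both, Slc32a1 (1.10) and Gad2 (-0.63) are filled under saline alone, and Calb1 has the widest bars.

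Reln lies at chr5:21884454-22344702 on the minus strand and encodes reelin, a secreted glycoprotein that in the adult cortex comes mainly from neurogliaform and some somatostatin interneurons. The Ctrl + Saline mice had 9.38, 6.64 and 8.21 normalized CPM and the Kdm7a-shRNA + Saline mice 4.71, 4.15, 2.61, 5.62 and 3.92, with no overlap. Under morphine the Ctrl mice had 12.5, 7.58, 6.09 and 9.09 and the Kdm7a-shRNA mice 2.91, 4.44, 3.09 and 7.51. There Kdm7a-shRNA + Morphine replicate 4 was above the lowest Ctrl mouse and the other 3 were below all Ctrl mice. The log2 fold change was -0.93 (95% interval -1.57 to -0.30, adjusted p = 0.0358) under saline and -0.98 (-1.61 to -0.36, adjusted p = 0.0440) under morphine, levels 1.91-fold and 1.98-fold lower. Both calls were near their limit, on 19 to 125 reads per mouse. Under saline the call was lost without any 1 of Ctrl + Saline replicates 1, 2 and 3 and Kdm7a-shRNA + Saline replicates 2, 3 and 5 (-1.06 to -0.81, adjusted p from 0.0526 to 0.0993). Under morphine it was lost without any 1 of Ctrl + Morphine replicates 1 and 4 and Kdm7a-shRNA + Morphine replicates 1, 2 and 3 (-0.98 to -0.77, adjusted p from 0.0800 to 0.144). Of the markers of Cajal-Retzius cells, the other cortical source of reelin, Trp73 had at most 14 reads in a mouse and was at 0 in 5 mice, and Nhlh2 had at most 1 and was at 0 in 12. Lhx5 had no entry in the gene table. Ndnf, which marks neurogliaform cells as well, had 9 to 43 reads. Its log2 fold change under saline was -0.40, which did not pass (adjusted p = 0.458). The part of Cajal-Retzius cells in the Reln level was not tested. The antisense genes Gm10475 and Gm16110 overlap Reln, so the limit given above for Gad1 and Slc32a1, that reads cannot be assigned to a strand, holds for it as well.

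Lhx6, at chr2:36081953-36105408 on the minus strand, encodes the LIM homeodomain factor that marks the parvalbumin and somatostatin lineages from the medial ganglionic eminence. It was the scarcest of the 9 in reads, with 15 to 60 per mouse. Its level was 4.10 ± 1.26 normalized CPM in Ctrl + Saline (SD, n = 3), 4.62 ± 1.11 in Ctrl + Morphine (SD, n = 4), 3.06 ± 1.05 in Kdm7a-shRNA + Saline (SD, n = 5) and 4.12 ± 2.22 in Kdm7a-shRNA + Morphine (SD, n = 4). The knockdown log2 fold changes, -0.42 (95% interval -1.19 to 0.35, adjusted p = 0.442) and -0.17 (-0.90 to 0.56, adjusted p = 0.807), were not detectable at this depth.

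Nos1, at chr5:117781032-117958840 on the plus strand, encodes neuronal nitric oxide synthase, found in long-range somatostatin cells and in neurogliaform cells. It stood at 9.25, 8.39 and 7.95 normalized CPM in Ctrl + Saline, at 8.49, 6.51, 9.25 and 8.56 in Ctrl + Morphine and at 8.16, 6.68, 4.74, 6.75 and 5.63 in Kdm7a-shRNA + Saline. In the Kdm7a-shRNA + Morphine mice it stood at 2.91, 3.36, 4.38 and 10.2, so that replicates 1, 2 and 3 were the lowest of all 16 mice and replicate 4 the highest. The log2 fold change was -0.42 (adjusted p = 0.339) under saline and -0.66 (SE 0.295, adjusted p = 0.171) under morphine. Without Kdm7a-shRNA + Morphine replicate 4 the latter was -1.18 and passed (adjusted p = 0.00432). The antisense gene Gm26995 overlaps Nos1, with the same limit. The mouse Kdm7a-shRNA + Morphine replicate 4 was the highest of its group for Gad1, Gad2, Slc32a1, Reln and Nos1, and without it 4 of the 9 genes passed under morphine, Pvalb, Gad2, Reln and Nos1. The calls over all genes also rose without it, from 1448 of 18826 to 2066 of 18804.

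Averaged over saline and morphine, which uses the same mice again, 4 of the 9 genes passed (17.6% of all genes did). These were Pvalb (0.75, SE 0.131, adjusted p = 5.12e-04), Slc32a1 (0.63, SE 0.146, adjusted p = 0.00409), Gad2 (-0.60, SE 0.143, adjusted p = 0.00469) and Reln (-0.96, SE 0.211, adjusted p = 0.00268). Gad2 and Slc32a1 lay near the fold change of 1.5 (1.52-fold lower and 1.55-fold higher). Gad2 fell under it without Ctrl + Saline replicate 1, Ctrl + Morphine replicate 1, Kdm7a-shRNA + Saline replicate 3 or Kdm7a-shRNA + Morphine replicate 3 (-0.58 to -0.53), and Slc32a1 without Ctrl + Saline replicate 3 or Ctrl + Morphine replicates 3 or 4 (0.54 to 0.58). Nos1 did not pass (-0.54, adjusted p = 0.0648) and did so without Kdm7a-shRNA + Morphine replicate 4 (-0.80, adjusted p = 7.14e-04).

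Morphine was compared with saline within each virus. None of the 9 genes passed in either comparison, by edgeR or by DESeq2, and over all genes 0% passed with the Ctrl virus and 0.00531% with the Kdm7a-shRNA virus by edgeR's quasi-likelihood test. Over all genes the count with the Ctrl virus depended on the test and on 1 mouse. It was 184 by DESeq2, 162 by edgeR's exact test and 230 without Ctrl + Saline replicate 1, against 0, and with the Kdm7a-shRNA virus 20 by DESeq2 and 15 by the exact test, against 1. With the Ctrl virus 1 of the 9, Slc32a1, had an unadjusted p under 0.05 (11.7% of all genes did), and with the Kdm7a-shRNA virus 0 of the 9 did (7.02% of all genes). Slc32a1 was 1.54-fold higher in Ctrl + Morphine than in Ctrl + Saline (log2 0.62, 95% interval 0.15 to 1.09, adjusted p = 0.268) and 1.25-fold lower in Kdm7a-shRNA + Morphine than in Kdm7a-shRNA + Saline (-0.32, -0.72 to 0.068, adjusted p = 0.750). The Ctrl + Saline mice that make this comparison are also those of the knockdown comparison under saline. Calb2 was the 1 gene of the 9 whose groups did not overlap with the Ctrl virus (12.4% of all genes), at 11.1 to 13.8 under saline and 8.96 to 11.0 under morphine, and its log2 fold change was -0.29, which did not pass (adjusted p = 0.671). Striatal medium spiny neurons also use GABA and contain calbindin, and their 9 markers summed to 87.6 to 111 normalized CPM in Ctrl + Saline and 139 to 169 in Ctrl + Morphine, where Slc32a1 and Calb1 also had their higher means. Most of that rise was Ppp1r1b, the best counted of the markers, which averaged 51.3 in the former and 103 in the latter (log2 1.00, adjusted p = 0.155, not passing). The 8 tested markers had a median log2 fold change of 0.019, and 4 of them were positive, so the sum does not stand for the list as a whole. Isl1 was at 0 in 12 mice and Drd2 had 2 to 26 reads. The part of striatal tissue in these values was not tested.

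The other genes of the same systems were counted over lists that hold the 9 as members, so the calls of the 9 enter these counts again. Over all genes 16.7% passed under saline and 7.69% under morphine. These shares include unannotated loci, while the list genes are named genes. In the fit of the 14435 known genes 1419 passed under saline, 875 of them as higher. Under morphine 446 passed, 268 of them as higher. Lower calls were thus rarer among known genes than in the shares over all genes given below. Of 13 tested genes of GABA metabolism and transport, 3 were higher and 1 lower under saline, and 2 were higher under morphine (list medians of the log2 fold change -0.0072 and 0.091, against 0.015 and -0.0045 for all genes). Slc32a1 and Gad2 are among those passing under saline. Slc38a3, a glutamine transporter of astrocytes, was higher under both (1.21, adjusted p = 0.0119, and 1.03, adjusted p = 0.0320), where astrocyte markers had medians of 0.53 and 0.59, and the neuronal glutamine transporter Slc38a1 under morphine (0.59, adjusted p = 0.00954). The count under morphine was not stable. It was 0 without Ctrl + Morphine replicates 1 or 4 or Kdm7a-shRNA + Morphine replicate 3, and 1 without Ctrl + Morphine replicates 2 or 3 or Kdm7a-shRNA + Morphine replicate 1.

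The parvalbumin class list had 3 of 11 tested genes higher and 0 lower under both treatments (medians 0.38 and 0.24), with Pvalb itself among the higher ones in both. Over all genes 7.43% were higher under saline and 2.86% under morphine. Of the 11 genes, 8 had a positive log2 fold change under saline and 10 under morphine. Slit2 (-0.57), Tac1 (-0.35) and Kcnc2 (-0.10) pointed down under saline and did not pass. Cox6a2, a mitochondrial subunit found in fast-spiking cells, rose with Pvalb under both (1.32, adjusted p = 0.00222, and 1.34, adjusted p = 0.00420), from 8.01 to 20.1 normalized CPM under saline. The synaptotagmin gene Syt2 was higher under morphine (1.27, adjusted p = 0.0296). The count under saline was 1 without Ctrl + Saline replicate 3.

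The somatostatin class list, which holds Calb1 and Nos1, had 0 of 10 tested genes higher and 3 lower under saline, and 0 higher and 2 lower under morphine (medians -0.41 and -0.46). Over all genes 9.31% were lower under saline and 4.83% under morphine, and among known genes these shares were smaller. Somatostatin itself, Sst, fell from 239 to 108 normalized CPM on average under saline (-1.14, adjusted p = 6.09e-04) and from 261 to 131 under morphine (-0.99, adjusted p = 0.00412). Cort, a related peptide gene, was lower under both (-1.40, adjusted p = 0.00116, and -1.14, adjusted p = 0.00920), and Crhbp under saline (-0.92, adjusted p = 0.00500). Without Kdm7a-shRNA + Morphine replicate 4 the count under morphine was 4.

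The neurogliaform and layer 1 list, which holds Reln and Nos1, had 0 of 12 genes higher and 3 lower under saline, and 0 higher and 2 lower under morphine (medians -0.42 and -0.43). Reln is among the lower ones in both. The shares of all genes that were lower were 9.31% and 4.83%, and those of known genes were smaller. Npy, the gene of neuropeptide Y, fell from 423 to 121 normalized CPM on average under saline (-1.81, adjusted p = 4.55e-05), the smallest adjusted p of all genes there, and from 344 to 147 under morphine (-1.22, adjusted p = 9.22e-04). Lamp5, a membrane protein gene of neurogliaform cells, was lower under saline (-0.91, adjusted p = 0.0225). The counts dropped to 1 under saline without Ctrl + Saline replicates 2 or 3 or Kdm7a-shRNA + Saline replicate 5, and to 1 under morphine without Ctrl + Morphine replicates 1 or 4 or Kdm7a-shRNA + Morphine replicates 1, 2 or 3.

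The Vip and Htr3a list, which holds Calb2, had 1 of 11 tested genes higher and 1 lower under saline, and 1 higher and 0 lower under morphine (medians -0.28 and -0.54). These counts of passing genes were near the shares of all genes that passed, 16.7% under saline and 7.69% under morphine, while the shares among known genes were smaller. Of the 11 genes, 5 had a positive log2 fold change under saline and 1 under morphine. Vip was lower under saline (-0.92, adjusted p = 0.00659). The gene that was higher is the growth factor gene Igf1 (2.45, adjusted p = 0.00632, and 2.80, adjusted p = 0.00552), which microglia make as well. Without Ctrl + Saline replicate 3 the count under saline was 1, and without Kdm7a-shRNA + Morphine replicate 4 that under morphine was 3. Of 12 tested interneuron transcription factors, Lhx6 included, 0 passed under saline and 2 had an unadjusted p under 0.05, among them Dlx5 (-0.80, adjusted p = 0.0969). Under morphine 1 passed, Npas1 (-1.10, adjusted p = 0.0476), and it passed in no repeat that left out 1 of the 8 mice. Under saline the count was 1 without Ctrl + Saline replicate 1 or Kdm7a-shRNA + Saline replicates 4 or 5.

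**Figure D4:**
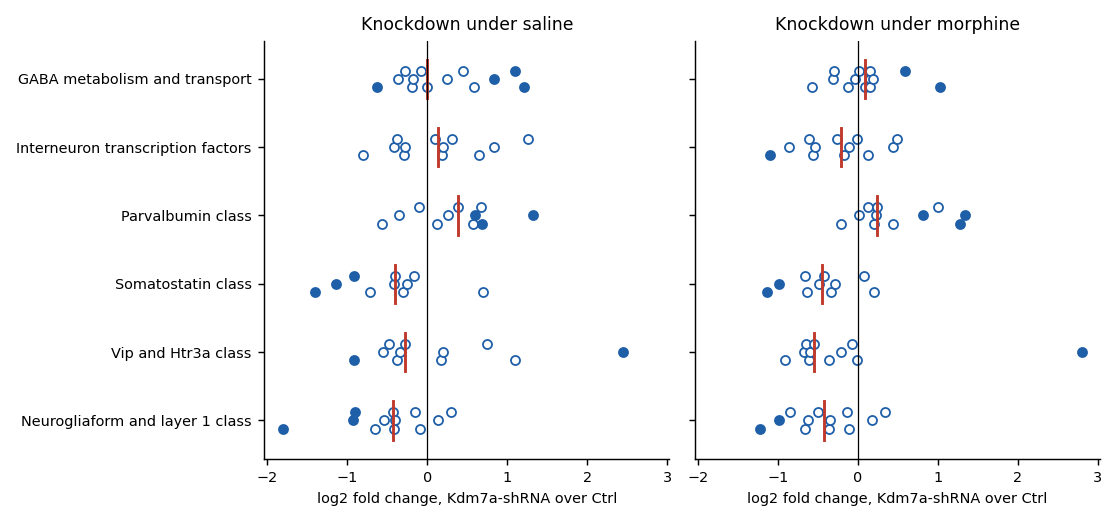
Log2 fold change of the Kdm7a-shRNA over the Ctrl group (x axis) for each tested gene (points, filled where it passed) of 6 lists (y axis), under saline (left) and under morphine (right), with the list median as a red line; points are offset vertically for clarity. Filled points of the parvalbumin list are all to the right of 0 and those of the somatostatin and neurogliaform lists all to the left.

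Microglial markers were higher in the Kdm7a-shRNA mice, 5 of 6 passing under saline and 3 of 6 under morphine. Their summed level was 415 to 656 normalized CPM in Ctrl + Saline, 357 to 583 in Ctrl + Morphine, 896 to 2165 in Kdm7a-shRNA + Saline and 560 to 2206 in Kdm7a-shRNA + Morphine, and none of the 6 was at 0 in any mouse. Some markers of other non-neuronal cells were higher as well. Of 5 endothelial markers 3 were higher under saline and 1 under morphine (medians 0.64 and 0.025), and their sum was 122 to 159 normalized CPM in Ctrl + Saline, 133 to 163 in Ctrl + Morphine, 164 to 263 in Kdm7a-shRNA + Saline and 148 to 268 in Kdm7a-shRNA + Morphine. Of 6 astrocyte markers 2, Gfap and Aldh1l1, were higher under saline and 0 under morphine, where 3 had an unadjusted p under 0.05, and 3 were higher when averaged. Their sum, most of it Aldoc, was 8720 to 10998 in Ctrl + Saline, 6984 to 8508 in Ctrl + Morphine, 8118 to 9801 in Kdm7a-shRNA + Saline and 7816 to 9637 in Kdm7a-shRNA + Morphine. Of 6 oligodendrocyte markers 5 were positive under saline and 6 under morphine (medians 0.44 and 0.29), and 0 passed in edgeR's test, 1 in each comparison having an unadjusted p under 0.05. No endothelial or astrocyte marker was at 0 in any mouse, and the part of these cells in the results was not tested. Of 6 markers of all neurons, 1, Map2, passed under saline, as lower (-0.64, adjusted p = 0.0487). Of these markers 0 were positive under saline (median -0.28), 2 under morphine (median -0.040) and 0 when averaged (median -0.12). Of 8 cortical excitatory markers 4 were positive under saline (median -0.031) and 1 under morphine (median -0.32). Among them 1 passed under saline, as higher, and 0 under morphine. With the summed microglial level as a covariate, a fit added after seeing the data and one in which the covariate moves with the virus, 2 of the 9 genes passed under saline, Slc32a1 (1.41, adjusted p = 0.00392) and Calb1 (1.74, adjusted p = 0.0213). In that fit Pvalb was 0.48 (adjusted p = 0.258), Gad2 -0.28 (adjusted p = 0.546) and Reln -0.40 (adjusted p = 0.551), and 0 of the 9 passed under morphine, with Pvalb at 0.65 (adjusted p = 0.0801).

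Transcript length also moved with the virus. The mean transcript length, weighted by counts, was 2546 to 2700 bases in the Ctrl mice and 2401 to 2591 in the Kdm7a-shRNA mice, and known genes under 1000 bases had a median log2 fold change of 0.19 under saline against -0.082 for those over 6000 bases. Kdm7a-shRNA + Morphine replicate 4, the mouse that decided Nos1, had 17.7% of its reads on genes over 4000 bases against 15.4% to 16.9% in the rest of its group. The 9 genes span the lengths. Pvalb has a transcript of 977 bases, Calb2 of 1431, Slc32a1 of 2797, Lhx6 of 3345, Gad1 of 3355, Calb1 of 4222, Gad2 of 5744, Nos1 of 10123 and Reln of 11699. The shortest was thus higher and the longest lower, while Calb2, the next shortest, did not pass and pointed down.

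With a correction for transcript length, also added after seeing the data, 2 of the 9 genes passed under saline, Slc32a1 (0.89, adjusted p = 0.0108) and Gad2 (-0.71, adjusted p = 0.0273). Pvalb (0.39, adjusted p = 0.137) and Reln (-0.83, adjusted p = 0.0646) did not. Under morphine Pvalb passed (0.67, adjusted p = 0.0420) and Reln did not (-0.92, adjusted p = 0.0786). Averaged over both treatments Gad2 and Reln passed, while Pvalb (0.53, adjusted p = 0.00711) and Slc32a1 (0.49, adjusted p = 0.0199) stayed under the fold change of 1.5. Each of these genes kept its direction.

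**Figure D5:**
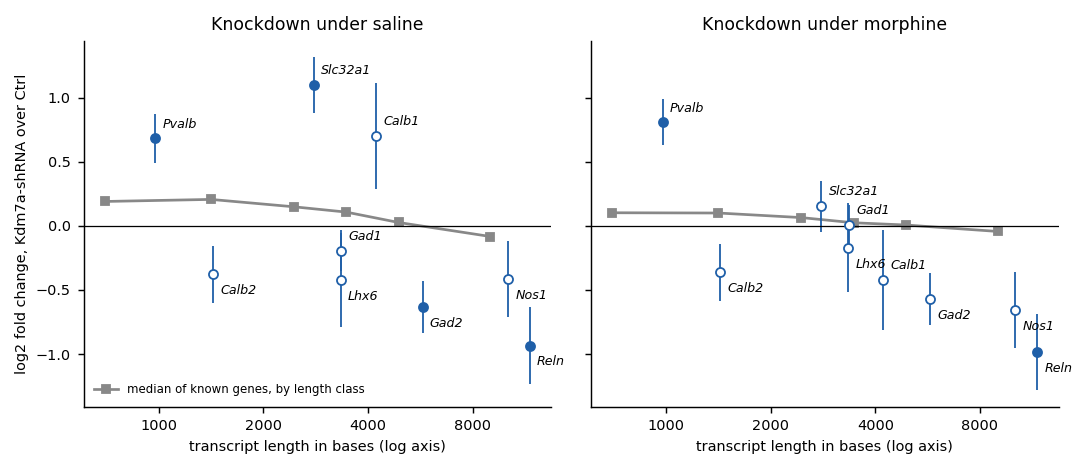
Log2 fold change of the Kdm7a-shRNA over the Ctrl group (y axis) against transcript length in bases (x axis, log scale) for the 9 genes (blue, bars SE, filled where passed), under saline (left) and morphine (right), with the median of all known genes in 6 length classes in grey, each drawn at 1 position inside its class. Under saline the grey line runs from 0.19 down to -0.082, and Pvalb (977 bases) and Reln (11699 bases) lie at its ends, well above and well below it.

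Whether mice with more of 1 transcript had more of another was examined over the 16 mice after the group means had been removed. Of 36 pairs, 0 passed after adjustment (permutation test within groups, Benjamini-Hochberg over the 36). The pair with the smallest p was Pvalb with Reln, with Pearson's r of -0.793 (permutation p = 0.00191, adjusted p = 0.0688), Spearman's rho of -0.824 (permutation p = 7.90e-04) and r of -0.721 without the 2 mice farthest from the median of Pvalb. Gad2 with Reln had r of 0.673 (permutation p = 0.00970, adjusted p = 0.175), rho of 0.626 (permutation p = 0.0198) and r of 0.553 without 2 mice.

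As a description, the genes whose levels followed each of the 9 most closely were sought among 7818 genes of at least 10 normalized CPM, by Pearson's r over the 16 mice. Here the group means were kept, so group differences enter. For Pvalb they were Map1lc3b, Laptm4b and Vamp1 (r of 0.965, 0.943 and 0.930), for Reln Grp, Amigo1 and Mgea5 (0.926, 0.910 and 0.908), for Gad2 Unc79, Ubr3 and Lrrn3 (0.928, 0.924 and 0.915) and for Slc32a1 Trnp1, Cpe and Rap1gap (0.901 for the first). Nos1 was followed by Adcyap1r1, Atg16l1 and Nisch (0.913, 0.911 and 0.896), Calb1 by Rtf1, Macrod2 and Spryd7 (0.903, 0.888 and 0.870), Gad1 by Atl1, Ctnna2 and Copg1 (0.879, 0.877 and 0.871) and Calb2 by Meaf6, Shoc2 and Nrsn2 (0.871, 0.817 and 0.801). Lhx6 had the loosest, Nek4, Ccnt2 and Grik2 (0.745, 0.695 and 0.688).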

How the data were processed

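Total RNA of the mPFC of 16 mice was sequenced by the authors with a Nanopore cDNA-PCR kit. Per the methods, the authors kept reads of quality 7 and 500 bases or more, removed ribosomal RNA, kept full-length reads, mapped them to mm10 with minimap2, collapsed them (Pinfish, cDNA Cupcake) and counted the reads that mapped well enough. The submitters' notes also name edgeR 3.8.6. The deposited counts are reads per gene without normalization; the deposited CPM values equal each count scaled to the total of its column to within 4.99e-06 and were used for that check alone. Gene rows were used and transcript-level tables were not.

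The analysis used edgeR 4.0.16 (R 4.3.3): filterByExpr, TMM factors, 1 fit over all 16 mice with 1 coefficient per group, the quasi-likelihood test and Benjamini-Hochberg adjustment. Fold changes are fitted coefficients and levels are TMM-normalized CPM. Groups were taken from the labels, and each mouse is 1 replicate. P-values rest on the spread between mice, and reads amplified by PCR are not independent molecules. Pairs of mice within groups correlated at 0.941 to 0.975, and none agreed within sampling noise. Positions and lengths (the longest principal transcript) are from GENCODE M21; promoters are from RefSeq on GRCm38.p6. Alternatives were RLE factors (DESeq2's), library size alone, no filter, at least 10 counts in every mouse, the compared groups alone, edgeR's exact test, DESeq2 1.42.0, a replicate block, adjusted p alone, known genes only, each mouse left out, and 2 fits added later (transcript length, microglia). The code was tested on simulated data, in which fewer genes changed than passed in the real data. By adjusted p alone it recovered 7.46% of 1.5-fold changes under saline and 8.96% under morphine. For 2-fold changes these were 38.8% and 31.3%, and for 3-fold changes 74.2% and 72.7%. With fewer changed genes the adjustment is stricter, so these rates may be lower than those in the real data. A gene that did not pass may still have changed. The 9 genes and the lists were chosen with earlier results of these data known. Named are all 9 genes, Kdm7a and the 3 genes nearest to each of the 9. From each list at most 4 passing genes per comparison are named, otherwise at most 2 by smallest p. For the parvalbumin list the genes that pointed down under saline are named as well. Striatal, Cajal-Retzius and tissue markers are named beside the results they touch. Some genes counted in the lists are not reported here by name.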

Additional observations from a re-analysis of the deposited data

Results flagged for a closer look

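Among the 27 sets of values formed by the 9 genes in the 3 groups of at least 4 mice, 1 held a mouse far from its group. Slc32a1 stood at 8.59 normalized CPM in Kdm7a-shRNA + Morphine replicate 4, while the next highest mouse of the group stood at 7.66. The gap between them was 0.832 of the group's whole range. Chance alone flags about 1 in 20 such sets.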

How the results depend on the processing

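Fold changes of the 9 genes in the 6 comparisons were recomputed under 10 to 12 other settings each, and with each mouse left out. Direction and side of the threshold were kept in 572 of the 612 values from other settings and in 510 of the 576 with 1 mouse left out. The number of the 9 genes passing stayed at 0 in both morphine comparisons and in the interaction under every setting and every mouse left out. It ranged from 1 to 4 with 1 mouse left out for knockdown under saline, from 1 to 4 under morphine and from 3 to 5 averaged. Under saline it was 2 with the transcript length correction and 2 with the microglia covariate; under morphine it was 1 in the compared groups alone, 1 with known genes only, 1 with the length correction and 0 with the covariate; averaged it was 2 and 1. Both of these fits were chosen after seeing the data.

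With library size alone Pvalb under saline was 0.55 (adjusted p = 0.0392, under the fold limit) and Gad2 under morphine passed (-0.68, adjusted p = 0.0464). Over all genes 3151 passed under saline, against 1852 with at least 10 counts, 1419 with known genes, 1371 with the length correction and 1451 with the covariate; under morphine the counts were 1448 against 697, 446, 370 and 954, and 685 in the compared groups alone. Fewer genes were tested in the first 3 of these. The number of list genes passing under saline was 1 for the parvalbumin list with library size alone and 0 with the covariate, 1 for the neurogliaform list with the covariate and 5 with adjusted p alone, and for the Vip list 1 with the covariate or at least 10 counts. Under morphine the covariate left 1 gene each in the parvalbumin, somatostatin, neurogliaform and GABA lists, known genes alone left 0 in the GABA list, and at least 10 counts left 0 in the Vip list. The transcription factor list had 1 gene passing under saline with the length correction, and 0 under morphine with no filter, at least 10 counts, known genes, the length correction or the covariate.

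Values that turned their direction had not passed in any setting. For Gad1 under morphine these were -0.090 with library size alone, -0.0050 with at least 10 counts, -0.030 with known genes and -0.042 with the length correction, and -0.043 for morphine under the Ctrl virus with that correction. With the microglia covariate Gad1 was 0.20 under saline and 0.26 averaged, Nos1 0.073 under saline, Calb1 0.28 and Lhx6 0.017 under morphine, Gad2 -0.084 and Reln -0.13 for morphine under knockdown, and Gad2 -0.014 and Calb2 -0.059 in the interaction. The cause was not tested.

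With 1 mouse left out, Gad1 under morphine ranged from -0.073 to 0.11, Lhx6 from -0.60 to 0.078 and averaged Calb1 from -0.18 to 0.29. For morphine under the Ctrl virus Gad2 ranged from -0.091 to 0.062, Pvalb from -0.18 to 0.078, Reln from -0.084 to 0.27, Lhx6 from -0.10 to 0.32 and Nos1 from -0.12 to 0.039. For morphine under knockdown Gad2 ranged from -0.11 to 0.15, Pvalb from -0.041 to 0.19, Reln from -0.27 to 0.24 and Lhx6 from -0.014 to 0.66. In the interaction Calb2 ranged from -0.12 to 0.17, Gad2 from -0.084 to 0.17, Lhx6 from -0.17 to 0.53, Pvalb from -0.0093 to 0.27 and Reln from -0.41 to 0.17.

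The labels number the mice alike in each group but tie no numbers together. The deviations of same-numbered mice of different groups correlated at -0.0855 to 0.340 over 21 pairs (median 0.015). Those of other pairs correlated at -0.418 to 0.284 over 74 pairs (median -0.0037). With the number as a replicate block, 4 genes passed under saline, 2 under morphine and 5 averaged, where Nos1 was added (-0.62, adjusted p = 0.0397), and the Vip list had 4 genes passing under saline and 2 under morphine; for morphine under the Ctrl virus Pvalb was 0.038 and Reln -0.037, and in the interaction Reln was 0.11. Without removal of the group means 9 of the 36 correlations passed, and that of Gad1 with Slc32a1 was -0.048. Depth limits Lhx6, Reln, Slc32a1, Nos1 and Gad2, each at 15 to 126 reads per mouse.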
